A study of Arabidopsis thaliana with 21 samples.

Results

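Divergent gene pairs are neighbours on opposite strands whose 5′ ends face each other, so that the stretch between the starts of transcription serves as upstream region for both genes. The pairs described here are adjacent protein-coding loci on chromosomes 1 to 5 of the TAIR10 annotation of Arabidopsis thaliana, sorted by start, with the left gene on the minus strand and the right gene on the plus strand. Both genes carry an annotated 5′ and 3′ untranslated region (UTR), and the gap between the end of the left gene and the start of the right gene is 1 to 250 bp. The rule finds 533 pairs with 1066 genes. They make up 15.7% of the 3399 divergent neighbour pairs with both UTRs in both genes, among 14096 neighbour pairs of any orientation with those UTRs. The pairs were chosen by their annotated orientation, UTRs and gap, so these values are given as a description, with no test.

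The annotation belongs to an RNA sequencing series on the stem and leaf of soc1-ful plants, mutant in the MADS-box genes SOC1 and FUL, and of wild type (WT) plants of the Col-0 accession. The soc1-ful libraries are from herbaceous, cambium and wood stems and from leaves, and the WT libraries from herbaceous and cambium stems and from leaves, with 3 libraries in each of the 7 groups, 12 of soc1-ful and 9 of WT. All plants grew with 16 h of light per day at 20 °C, and strand-specific libraries were made from poly(A) RNA. No expression value of a library was analysed here, so nothing below says whether the genes of a pair are transcribed together in any of these groups. The annotation is a single census with no replicates, and the shares below carry no test.

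RNA polymerase II starts transcription at core promoters, and a nucleosome-free stretch between facing starts can serve both directions. A TATA box lies a short way upstream of the start in a minority of plant genes. Site II elements are bound by TCP transcription factors and, in Arabidopsis, occur upstream of genes for ribosomal proteins, the cell cycle and mitochondrial proteins. The telo-box, a word with the sequence of the plant telomere repeat, also occurs near the starts of ribosomal protein genes. The G-box is bound by bZIP and bHLH factors, the CAAT box by NF-Y and E2F sites by the E2F factors of the cell cycle. The letters searched were TATAAA for the TATA box, AAACCCTA for the telo-box, TGGGCC and TGGGCT for site II, CCAAT for the CAAT box, CACGTG for the G-box, TTTCCCGC and TTTGGCGC for E2F sites and GAAGAAGA for a GA repeat, each on both strands. A match is a word in the sequence, not a bound site.

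Site II words and telo-boxes were more frequent in these gaps than between convergent or tandem genes. A divergent gap lies upstream of both its genes, a tandem gap of a single gene and a convergent gap of neither. Shares per gap therefore differ in the number of starts they cover. Both words occurred in 25 of the 533 gaps (4.69%). In windows of 200 bp centred on the gaps, both occurred in 5.63% of the pairs, 1.76% of tandem and 0% of convergent windows. In divergent windows the share was 1.28% at gaps of more than 250 up to 500 bp and 0% at more than 500 up to 1000 bp. Whether the words occur together more often than their single shares give was not tested. In 5 of the 25 gaps the words lie within 30 bases of each other. These 5 pairs are shown as examples, not as a typical gap, and were chosen after their sequences were seen. The stretches below are the plus strand from 5′ to 3′, read from the RefSeq TAIR10.1 assembly at TAIR10 positions, and capitals mark the site II word and the telo-box. On the plus strand TAGGGTTT is the telo-box of the minus strand, while GGCCCA and AGCCCA are site II words of the minus strand.
ATMAK3 and PSRP4, chr2:15980781-15980810: tgtgTAGGGTTTagatatattTGGGCTtta
AT2G22400 and SLO1, chr2:9508929-9508958: tttttaatTGGGCTtTAGGGTTTtggtttt
AT3G24820 and AT3G24830, chr3:9064479-9064508: caaaaGGCCCAataaatTAGGGTTTagaga
AT3G05060 and AT3G05070, chr3:1416048-1416077: tTAGGGTTTaggttttaagattaaTGGGCC
EDA7 and AT3G57000, chr3:21092171-21092200: ttttcTGGGCCttttaaAAACCCTAaaact
The space between the words was 9 bases in the ATMAK3 pair, 1 base in the SLO1 pair, 6 bases in the AT3G24820 pair, 15 bases in the AT3G05060 pair and 6 bases in the EDA7 pair. Their gaps measured 133, 141, 153, 181 and 206 bp in the same order. PSRP4 encodes a plastid ribosomal protein, SLO1 a pentatricopeptide repeat protein and AT3G24830 a ribosomal protein of the L13 family. AT3G05060 encodes a NOP56-like protein of pre-RNA processing and AT3G05070 a Cwf18 splicing factor.

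For each word, the smallest gap that holds it is shown by 30 bases, again on the plus strand with the word in capitals.
Site II, C form, AT1G29250 and PEX7, chr1:10224783-10224812: tccagcccaataGGCCCAattggggggaaa
Site II, T form, AT4G26400 and AT4G26410, chr4:13346598-13346627: aaAGCCCAttaaccgcaaactgatatataa
Telo-box, AT2G43640 and EMB2777, chr2:18099206-18099235: taaaaccttacTAGGGTTTtaacgatacgt
G-box, COL2 and AT3G02390, chr3:488750-488779: atctttggagatataCACGTGgcgcagagt
CAAT box, AT2G02970 and OTP85, chr2:868290-868319: aaATTGGtcgttgtagcgccttttacgatt
TATA box, AT5G25752 and AT5G25754, chr5:8953409-8953438: aataaatcgagaTATAAAcaaaccggtggt
E2F, C form, HEB2 and AT3G16740, chr3:5699170-5699199: cttctctagatTTTCCCGCttctcatcaaa
E2F, G form, AT1G01930 and AT1G01940, chr1:322990-323019: aacgaacaaaaGCGCCAAAagcatcctaga
GA repeat, OASB and AT2G43760, chr2:18132643-18132672: atatagagcacatgtTCTTCTTCatcatgc
PEX7 is the receptor that brings proteins with a peroxisomal targeting signal of the second type to the peroxisome, COL2 is a relative of the flowering regulator CONSTANS, and OTP85 is a pentatricopeptide repeat protein. EMB2777 belongs to the Sas10/Utp family of ribosome biogenesis proteins, and HEB2 is a subunit of the condensin-2 complex. These gaps measured 87 bp for PEX7, 56 bp for AT4G26400, 101 bp for EMB2777, 86 bp for COL2, 69 bp for OTP85, 54 bp for AT5G25752, 165 bp for HEB2, 166 bp for AT1G01930 and 35 bp for OASB.

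In TAIR10, facing 5′ ends rarely overlapped, while facing 3′ ends often did. Divergent neighbours overlapped or touched in 47 of 3399 pairs (1.38%), against 1139 of 3479 convergent pairs (32.7%) and 134 of 7218 tandem pairs (1.86%). In TAIR10.1, a newer annotation of the same sequence, the counts were 278 of 4650 divergent pairs (5.98%), against 2102 of 4666 convergent pairs and 423 of 10258 tandem pairs (4.12%), so divergent neighbours stood above tandem ones there. A gap of 1 to 250 bp was found in 15.7% of divergent pairs, 28.8% of convergent pairs and 18.1% of tandem pairs. Within that range 35 of the 533 divergent gaps (6.57%) measured 100 bp or less, against 57.6% of the 1001 convergent gaps and 24.2% of the 1310 tandem gaps. This share depends on the annotated starts. Of the 414 pairs that still measured 1 to 250 bp in TAIR10.1, 193 (46.6%) measured 100 bp or less there, and over all gaps of 1 to 250 bp in that annotation the shares were 36.0% for divergent, 63.2% for convergent and 48.5% for tandem neighbours. The median gap within the range was 168 bp for divergent, 83 bp for convergent and 162 bp for tandem neighbours.

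**Figure D1:**
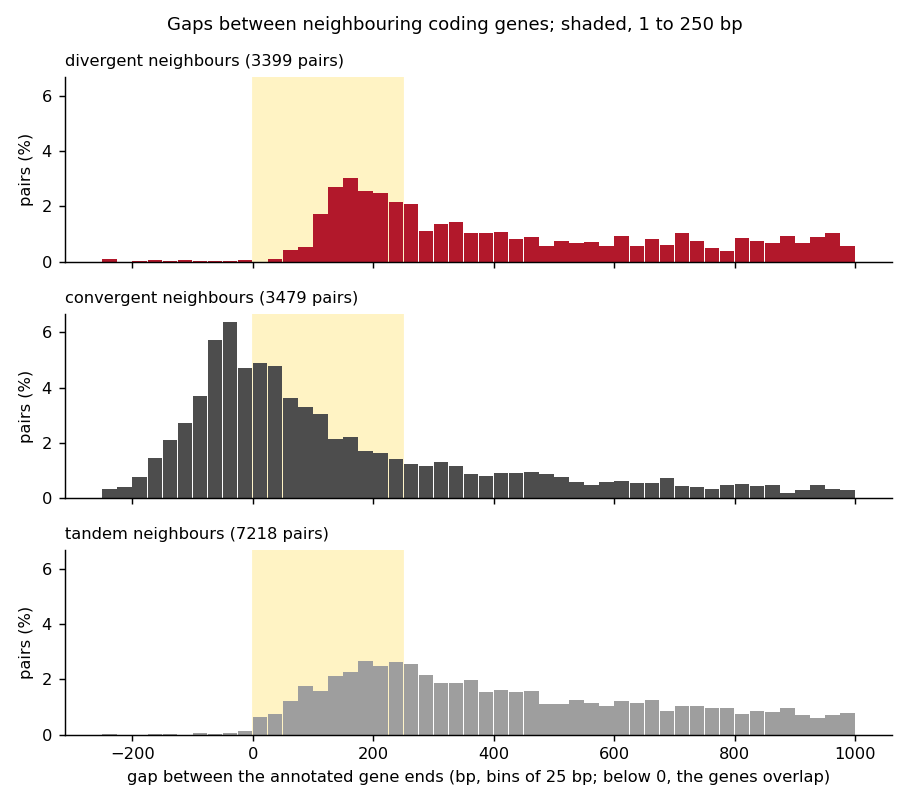
Share of neighbour pairs (percent) in bins of 25 bp of the gap for divergent, convergent and tandem neighbours with both UTRs in both genes; the shaded range is 1 to 250 bp, and values below 0 are overlaps. In TAIR10, divergent gaps are few below 100 bp and fullest at 151 to 175 bp, with 103 pairs, while 32.7% of convergent pairs overlap or touch.

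Divergent gaps numbered 3 from 1 to 50 bp, 32 from 51 to 100 bp, 151 from 101 to 150 bp, 190 from 151 to 200 bp and 157 from 201 to 250 bp. The next bins of 50 bp held 109, 95 and 71 pairs up to 400 bp, so the counts thin out past the limit without a break. The fullest bin of 25 bp ran from 151 to 175 bp. Convergent gaps fell in the same 5 bins with 336, 241, 181, 136 and 107 pairs, highest at the shortest gaps. Tandem gaps numbered 101, 216, 267, 357 and 369 and were fullest at the long end.

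The 533 gaps averaged 170 ± 46.6 bp (mean ± SD over pairs, not replicates), with quartiles at 137 and 206 bp. The lowest was 35 bp, between OASB, a cysteine synthase, and AT2G43760, a MoaE family protein of molybdopterin synthesis. AT3G08000, an RNA-binding protein, lay 41 bp from ATAB2, which is needed for translation of photosystem proteins in the chloroplast. AT3G26670 and SNM1, a DNA repair nuclease, were 44 bp apart. The next were AT1G51730, a ubiquitin-conjugating enzyme, and the syntaxin SYP81 at 54 bp, AT5G25752 and AT5G25754 at 54 bp, AT3G63390 and the cyclophilin AT3G63400 at 55 bp, AT1G68862 and SOFL2 at 56 bp, and AT4G26400 and AT4G26410 at 56 bp. These 8 gaps held few guanines and cytosines in places: 22% in the ATAB2 gap, against 40.0% in the OASB gap.

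Just inside the limit lay ATTRX4, a thioredoxin, with AT1G19740 at 250 bp, BRIZ1 with AT2G42170 at 250 bp, AT3G27220 with AT3G27230 at 250 bp, and AT4G13500 with the ammonium transporter AMT1;1 at 249 bp. Just outside lay PEX11E with AT3G61080 and AT5G56900 with AT5G56910, both 1 bp past the limit, AT1G14300 with AT1G14310 at 252 bp and AT3G20230 with AT3G20240 at 252 bp. The sulfite oxidase gene SOX and AT3G01920 abut with a gap of 0 bp and are not counted. A pair of well-known divergent arrangements also fell outside: AT4G35985 and AT4G35987 are 1165 bp apart, and AT4G35985 does not carry both UTRs, while CAB2 and CAB1, which encode light-harvesting proteins, are 2045 bp apart.

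The distance between the start codons of the first listed isoforms spans the gap, both 5′ UTRs and their introns. Where another isoform starts further upstream, the stretch up to that start is included too. The distance had a median of 425 bp, with quartiles at 320 and 668 bp and a range of 147 to 3145 bp. Divergent pairs with gaps of more than 250 up to 1000 bp had a median of 954 bp (892 pairs). The shortest was 147 bp, between AT2G37310, a pentatricopeptide repeat gene, and AT2G37320, a tetratricopeptide repeat gene, whose 5′ UTRs measured 4 and 15 bp. AT3G45880 and RUS1 followed at 152 bp, APG10 and AT2G36240 at 153 bp, EMB3120 and AT3G14910 at 154 bp, and AT5G10605 and the cytochrome P450 gene CYP81K1 at 158 bp. APG10 is an enzyme of histidine synthesis in the plastid.

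The pairs occurred on every chromosome. Chromosome 1 held 153 pairs, chromosome 2 held 84, chromosome 3 held 117, chromosome 4 held 79 and chromosome 5 held 100. They were 17.6% of the divergent pairs of chromosome 3 and 13.1% of those of chromosome 5, the highest and lowest of the 5 shares. Each gene belonged to 1 pair.

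In 5 pairs a locus of another class overlapped the gap, so the neighbouring genes are adjacent only among coding loci. A tRNA locus lay between AT1G32610 and AT1G32630, between CPSF73-I, the endonuclease that cuts pre-mRNA 3′ ends, and AT1G61030, and between NSN1 and emb1974. A transposable element gene reached into the gap between 2A6 and AHP5, and a locus of the class other RNA began in the gap between AT4G13500 and AMT1;1. These 5 pairs were named after their positions were seen.

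The genes of the pairs were of ordinary length, with slightly shorter transcripts than other coding genes. The median transcript measured 1326 bp in the 1066 genes, 1416 bp in the 1784 genes of divergent pairs with gaps of more than 250 up to 1000 bp, and 1449 bp in the 18044 other coding genes with both UTRs, which include those 1784. The median coding sequence measured 993 bp in the pairs, 1047 bp at the longer gaps and 1074 bp in the other genes. The 5′ UTR had a median of 89.5 bp in the pairs, against 102 bp and 103 bp in those sets, and the 3′ UTR medians were 202, 203 and 206 bp. The median exon number was 5 in the pairs, 5 at the longer gaps and 4 in the other genes.

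Genes with a single exon made up 9.66% of the pair genes, 15.3% of the genes at longer gaps and 16.6% of the other genes. Both genes had 1 exon in 4 pairs, 1 of the genes in 95 pairs and neither in 434 pairs. Introns in the 5′ UTR were as frequent in the pairs (19.8%) as at longer gaps (19.7%), and stood at 18.0% in the other genes. At the far side, the gap at the 3′ end of the pair genes had a median of 254 bp, against 337 bp at longer divergent gaps and 483 bp in the other genes. An overlap with the 3′ neighbour was annotated for 20.4% of pair genes, 17.5% of genes at longer gaps and 13.8% of the other genes.

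The genes of a pair did not resemble each other in size. Spearman's rho between the left and the right gene over 533 pairs was 0.16 for 5′ UTR length, 0.0016 for transcript length and -0.02 for exon number. The gap and the summed 5′ UTR lengths had a rho of -0.06. These are descriptions across pairs of 1 annotation.

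The proteins of a pair were rarely alike. BLASTP aligned the partners with an E-value of 1e-5 or less in 4 of 533 divergent pairs (0.75%), against 17 of 1001 convergent pairs (1.70%) and 80 of 1310 tandem pairs (6.11%). The 4 divergent pairs are AT2G23070 with CKA3, both casein kinase II alpha chains, at 83.8% identity over 328 residues, AT1G54840 with AT1G54850, small heat shock proteins, at 57.5% over 106 residues, AT2G45930 with AT2G45940 at 38.9% over 180 residues, and AT2G37310 with AT2G37320 at 33.3% over 339 residues. Their gaps measured 214, 139, 214 and 128 bp in that order.

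Product classes of gene expression and organelle functions held larger shares of the pair genes than of the other genes, though each class was small. Genes at longer divergent gaps were not set apart in this comparison. Ribosomal proteins accounted for 52 of the 1066 genes (4.88%), against 1.67% of the 18044 other coding genes with both UTRs. Pentatricopeptide or tetratricopeptide repeat proteins, many of which process RNA in plastids and mitochondria, accounted for 42 genes (3.94%, against 1.37%), RNA processing for 43 (4.03%, against 2.14%) and mitochondrial or respiratory proteins for 25 (2.35%, against 1.04%). The last class follows words in product names and also counts NdhN, a subunit of a chloroplast complex. Translation factors and tRNA-related proteins numbered 18 (1.69%, against 1.08%) and vesicle traffic proteins 20 (1.88%, against 1.25%).

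Kinases, the class of transcription factors and zinc finger proteins, and receptor-like proteins stood lower. Products with kinase in their name numbered 29 (2.72%, against 5.06% of the other genes), and transcription factors and zinc finger proteins 25 (2.35%, against 5.29%). Disease resistance or receptor-like proteins numbered 5 (0.47%, against 1.55%), cytochromes P450 5 (0.47%, against 0.90%) and F-box proteins 8 (0.75%, against 0.96%). Proteasome and ubiquitin genes, with 38 members (3.56%, against 3.01%), and histone or chromatin genes, with 7 (0.66%, against 0.69%), had similar shares in both sets. DNA replication or repair genes numbered 5 (0.47%, against 0.25%), and products named only as uncharacterized numbered 90 (8.44%, against 11.5%). The classes rest on words in product names and can overlap.

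**Figure D2:**
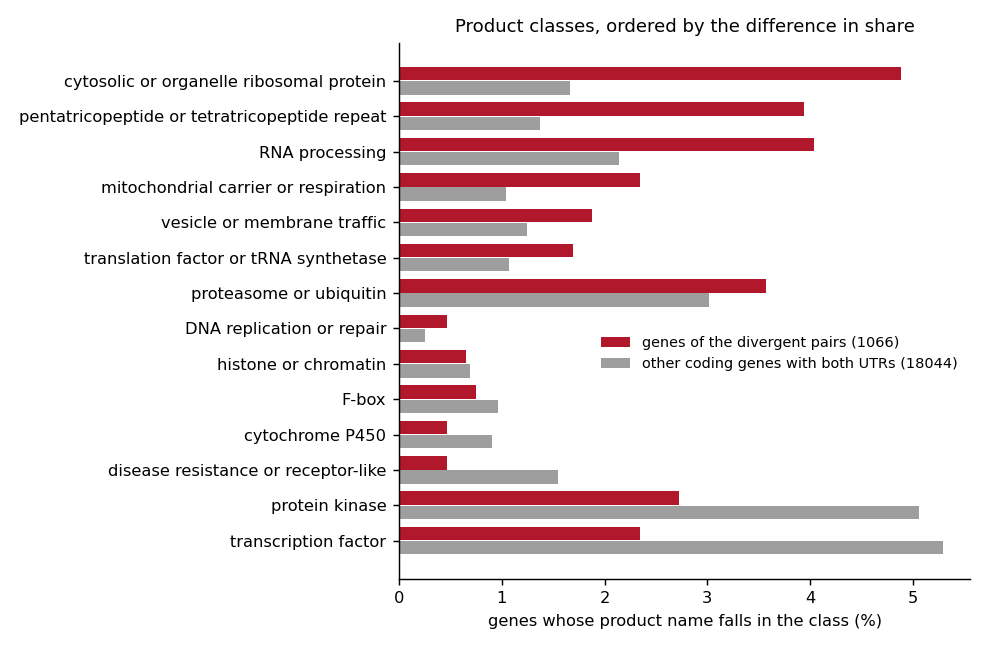
Share of genes (percent) whose product name falls in each class, for the 1066 genes of the divergent pairs (upper bars) and the 18044 other coding genes with both UTRs (lower bars), ordered by the difference. Ribosomal proteins stand at 4.88% in the pairs and 1.67% in the other genes. The transcription factor class, which also counts zinc finger proteins, stands at 2.35% in the pairs and 5.29% in the other genes.

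Few pairs had both genes in 1 class, and each class is small: ribosomal proteins, the largest named class, held 4.88% of the pair genes. Convergent and tandem pairs were not compared for this. The counts therefore do not show whether partners share a class more or less often than other neighbours. Both genes encoded ribosomal proteins in 1 of the 51 pairs with such a gene, rps15ab with AT2G19730, a member of the L28e family, 167 bp apart. In RNA processing, 3 of 40 pairs had both genes in the class. The smallest gaps among them were 116 bp between AT1G47497 and RBP47C' and 131 bp between AT1G55140 and the helicase gene RH20. The other, 181 bp between AT3G05060 and AT3G05070, is outside the rule for named pairs and was added after its value was seen. AT1G44770 and AT1G44780, an elongation factor and an initiation factor by product name, were 212 bp apart. NdhN, a subunit of the chloroplast NADH dehydrogenase-like complex, and ABCB25, a transporter of the mitochondrial inner membrane, were 197 bp apart. AT4G02210, a Myb/SANT-like protein, and AT4G02220, a MYND zinc finger protein, were 148 bp apart.

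None of the genes listed for flowering and for the tissues of the stem and leaf belonged to a pair. Lists of flowering, cambium, secondary wall, wall polysaccharide, lignin, phloem, photosynthesis and epidermis genes gave 122 loci, of which 111 had both UTRs, and 0 of these belonged to a pair. In comparison, the 1066 pair genes are drawn from 19110 coding genes with both UTRs. Of the listed genes, 52 had a divergent upstream neighbour, at a median of 2445 bp, against 1402 bp for the 12932 nuclear coding genes with one. The closest was the xylan gene IRX10, with 463 bp. By list, the median divergent upstream gap was 2354 bp for the 11 flowering genes with such a neighbour, 4799 bp for 9 cambium genes, 6222 bp for 5 regulators of the secondary wall and 1856 bp for 8 wall polysaccharide genes. It was 2079 bp for 8 lignin genes, 4375 bp for 3 phloem genes, 2203 bp for 5 photosynthesis genes and 5216 bp for 3 epidermis genes. The lists are short, and unlisted genes with such functions are among the pairs, named here after their values were seen. They include the flowering gene LD, 93 bp from CUL1, the chromatin gene PIE1, 219 bp from SDRB, and VIP3, 179 bp from CFIM-25. Photosystem I genes in pairs are PSAH2, 138 bp from AT1G52220, PSAE-2, 156 bp from AT2G20250, and Lhca6, 232 bp from AT1G19140.

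The gaps were richer in GC and in CpG than other short intergenic stretches. The median GC content was 36.8% in the 533 divergent gaps, with quartiles at 33.7% and 39.5%, against 32.8% in convergent gaps and 34.0% in tandem gaps of 1 to 250 bp. Divergent gaps of more than 250 up to 500 bp had a median of 35.3%, and those of more than 500 up to 1000 bp had 31.3%. The ratio of observed to expected CpG was 1.09 in the gaps of the pairs, against 0.595 between convergent genes, 0.929 between tandem genes, 1.0 at divergent gaps of more than 250 up to 500 bp and 0.874 at more than 500 up to 1000 bp. Single gaps ranged widely. The AT-richest gap, 75 bp between PTAC6 and AT1G21610, had 12.0% GC, and the GC-richest, 122 bp between G6PD4 and ACLA-3, had 53.3%. Both gaps were named after their values were seen.

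Site II words were present in about as many gaps as the shorter CCAAT, and far less often between convergent genes, where no start faces the gap. Tandem gaps lie upstream of a single gene, so the shares per gap are not shares per start. TGGGCC occurred in 38.6% of the 533 gaps, against 1.30% of convergent and 16.3% of tandem gaps, and TGGGCT in 29.8%, against 2.60% and 12.9%. Either form was present in 248 gaps (46.5%), against 3.50% of convergent and 21.6% of tandem gaps. Per kb of gap, site II words numbered 6.49 in the pairs, 0.446 between convergent genes and 2.70 between tandem genes, and 3.60 and 1.98 in divergent gaps of more than 250 up to 500 bp and of more than 500 up to 1000 bp. Most gaps with a site II word had more than 1: 216 had at least 2 and 96 at least 3, while 32 had a single one. Over the whole gap, site II words were present in 52.9% and 61.1% of the divergent gaps of more than 250 up to 500 bp and of more than 500 up to 1000 bp, which are longer and so have more places for a word. In 138 gaps (25.9%) the words lay in both orientations. The gap between AT2G39805 and HOS1, a ubiquitin ligase of cold signalling, held 6 in 245 bp, the highest count of the 533, and was named after its value was seen.

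The telo-box occurred in 10.9% of the gaps, against 0.60% of convergent and 3.21% of tandem gaps. Whole divergent gaps of more than 250 up to 500 bp held it in 10.2% and those of more than 500 up to 1000 bp in 10.8%, shares near that of the pairs. Per kb of gap the telo-box numbered 0.674 in the pairs, 0.295 at more than 250 up to 500 bp and 0.151 at more than 500 up to 1000 bp. The G-box occurred in 12.6% of the gaps of the pairs, against 0.50% of convergent and 6.41% of tandem gaps. The GA repeat occurred in 12.2%, against 1.5% and 6.03%, and an E2F word in 1.88%, against 0% and 0.76%. CCAAT occurred in 46.2%, against 20.1% of convergent and 36.6% of tandem gaps. TATAAA occurred in 34.1%, against 12.7% and 25.6%. Whole divergent gaps of more than 250 up to 500 bp held CCAAT in 70.3%, TATAAA in 59.1% and the G-box in 18.9%. They held the GA repeat in 11.3% and an E2F word in 2.05%, and have more places for a word. Per kb, TATAAA numbered 2.65 in the pairs, 2.70 in these gaps and 2.95 at more than 500 up to 1000 bp. In the same order CCAAT numbered 3.87, 3.36 and 2.79, the G-box 0.939, 0.728 and 0.394 and the GA repeat 1.02, 0.512 and 0.407. Site II and the telo-box occurred together in 25 gaps of the pairs (4.69%), and site II and TATAAA in 91 (17.1%). These counts were not tested against the single shares of the words. Of the gaps of the pairs, 94 (17.6%) held none of the words searched. Words can share bases: 34 of the 587 site II matches shared bases with another site II match, 162 with a CCAAT and 10 with a TATAAA.

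Because convergent gaps are shorter, the shares were also taken in windows of 200 bp centred on the middle of each gap. The windows do not even out the number of starts, which differs with orientation. In these windows site II words remained more frequent in the pairs, with 47.8%, against 5.09% of convergent and 25% of tandem windows, and against 38.9% and 11.8% of divergent windows at gaps of more than 250 up to 500 bp and of more than 500 up to 1000 bp. The telo-box stood at 12.9% in the pairs, against 1.20% in convergent windows, 5.04% in tandem windows, 2.05% in divergent windows at gaps of more than 250 up to 500 bp and 1.0% at gaps of more than 500 up to 1000 bp. The GA repeat stood at 18.0% in the pairs, against 2.80% in convergent and 8.55% in tandem windows. The G-box stood at 13.1% in the pairs, against 0.60% in convergent and 6.95% in tandem windows. In divergent windows the G-box stood at 12.5% at gaps of more than 250 up to 500 bp, close to the pairs. At gaps of more than 500 up to 1000 bp it stood at 3.19%. TATAAA stood at 35.6% in the pairs, 32.9% between 3′ ends and 33.6% between tandem genes, which are close to each other. CCAAT stood at 49.3% in the pairs, against 36.0% in convergent windows, 44.4% in tandem windows and 55.2% in divergent windows at gaps of more than 250 up to 500 bp. A window of 200 bp reaches into the UTRs where the gap is shorter, and in longer gaps it lies away from both starts and misses the words near them, among them many telo-boxes by their position in the pairs.

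**Figure D3:**
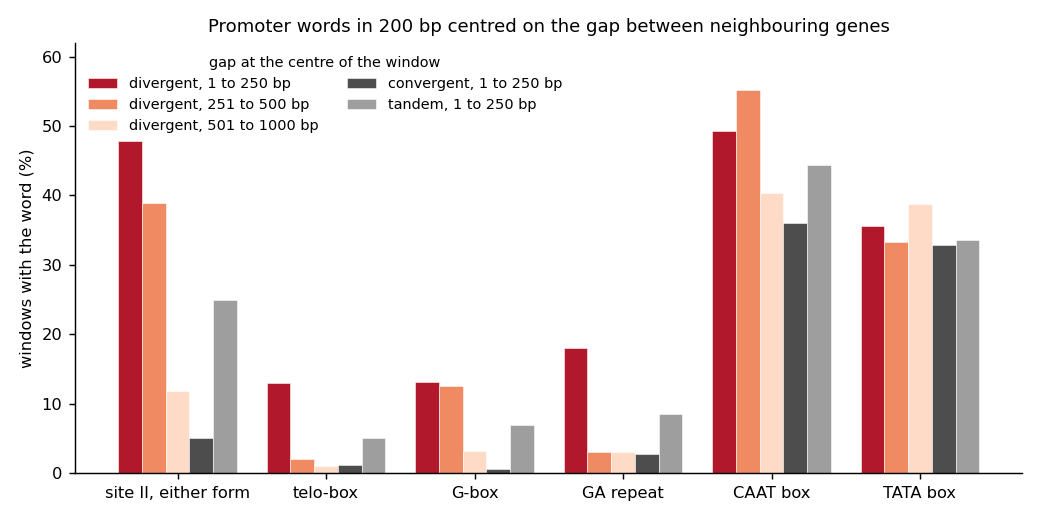
Share of windows of 200 bp, centred on the middle of the gap, that hold each word on either strand, for divergent gaps of 1 to 250 bp (533), of more than 250 up to 500 bp (391) and of more than 500 up to 1000 bp, and for convergent (1001) and tandem (1310) gaps of 1 to 250 bp. Site II words stand at 47.8% in the divergent pairs and 5.09% in convergent windows, while TATAAA lies between 32.9% and 38.7% in all of the sets.

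Seen from single starts, some of the words differed in share between the pair genes and other genes. Of the 996 pair genes whose gap measures at least 100 bp, 35.8% had a site II word in the 100 bp before the start, against 17.4% of genes at divergent gaps of more than 250 up to 1000 bp and 13.2% of the other genes with both UTRs. The telo-box stood at 6.83%, against 3.81% and 2.78%, and CCAAT at 32.4%, against 23.8% and 22.8%. The G-box stood at 7.93%, against 5.27% and 4.52%. TATAAA on either strand was less frequent, at 21.5%, against 24.6% and 29.2%. The GA repeat stood at 6.73%, against 5.21% and 5.92%, which are close to each other. In promoters from 250 bp before to 50 bp after the start, 49.2% of the 1066 pair genes had a site II word, against 23.6% of the other genes, 20.8% had a telo-box, against 7.02%, and 38.1% had TATAAA, against 52.4%. For the pair genes these promoters reach past the gap into the partner gene. A word in the gap can count for both genes of a pair.

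On the strand of the gene, with its first base 20 to 45 bases before the start, TATAAA occurred in 77 of the 1066 pair genes (7.22%), against 11.0% of the genes at divergent gaps of more than 250 up to 1000 bp and 14.5% of the other genes. Both starts of a pair had it in 5 pairs, 1 start in 67 pairs and neither in 461 pairs. The 5 pairs, named after their values were seen, are AT1G26170 with AT1G26180, OTC with AT1G75335, BGAL16 with AT1G77420, AT3G09800 with IDH-VI, and OCP3 with AT5G11280. OTC is the ornithine carbamoyltransferase of arginine synthesis, BGAL16 a beta-galactosidase and IDH-VI an isocitrate dehydrogenase. The OTC and OCP3 pairs are shown as examples, not as typical gaps, and were picked from the 5 by no stated rule. Each stretch is on the strand of its gene, with TATAAA in capitals.
OTC, minus strand, chr1:28268428-28268457: tcatcggtgtctctctTATAAAggtaaagc
AT1G75335, plus strand, chr1:28268496-28268525: tcaattctatgTATAAAaaggtttatttat
OCP3, minus strand, chr5:3597114-3597143: tttacaaagattcaTATAAAaatccgatta
AT5G11280, plus strand, chr5:3597202-3597231: gcaaagcgtgtcgttTATAAAgtatttatt
The first base of TATAAA lay 29 bases before the start of OTC and 34 bases before that of AT1G75335, in a gap of 128 bp. It lay 31 bases before the start of OCP3 and 30 bases before that of AT5G11280, in a gap of 148 bp. In the pairs not printed, it lay 45 bases before the start of AT1G26170 and 25 before that of AT1G26180. It lay 37 bases before BGAL16 and 44 before AT1G77420, and 31 before AT3G09800 and 30 before IDH-VI.

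Site II words and telo-boxes lay in different stretches of the gaps. In the gaps, 63.2% of the 587 site II matches lay in the middle stretch of a gap cut into 3 equal stretches, and 4.94% in the outer of 2 equal parts of an end stretch, next to a start, at a median of 63 bp from the nearer start. Of the 61 telo-box matches, 47.5% lay next to a start, at a median of 26 bp. Of the 240 TATAAA matches, 28.8% lay next to a start, 34.2% in the middle stretch and 37.1% between these, so they were spread nearly evenly, at a median of 33 bp from the nearer start. Of the 350 CCAAT matches, 50% lay in the middle stretch. In steps of 10 bp from the start, site II words peaked in the pair genes at positions -80 to -71. They reached 12.1 matches per 100 genes there, against 3.67 in the other genes. The starts of a pair share the gap, so each site II word in it counts from both. The height and place of this peak depend on that. TATAAA on the strand of the gene peaked at -40 to -31 in every set, with 4.13 matches per 100 pair genes, 7.17 per 100 genes at divergent gaps of more than 250 up to 1000 bp and 9.29 per 100 of the other genes.

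**Figure D4:**
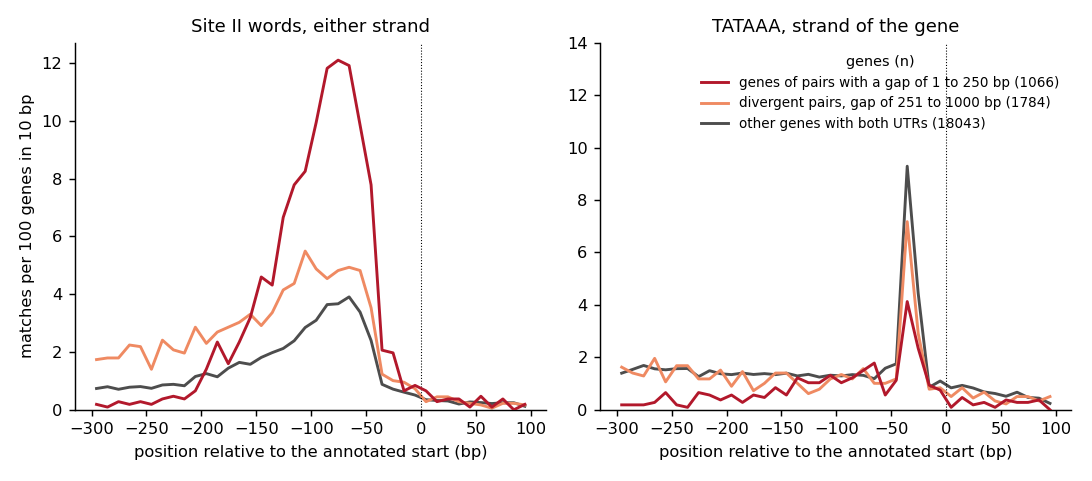
Matches per 100 genes in steps of 10 bp by position relative to the annotated start, for site II words on either strand (left) and TATAAA on the strand of the gene (right), in genes of the divergent pairs, genes at divergent gaps of more than 250 up to 1000 bp and other genes with both UTRs. Site II words reach 12.1 per 100 genes at -80 to -71 in the pairs and 3.67 in the other genes. A site II word in the gap of a pair counts from both starts. TATAAA at -40 to -31 reaches 4.13 in the pairs and 9.29 in the other genes.

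The pairs differed among themselves with gap size. Site II words occurred in 6 of the 35 gaps of up to 100 bp (17.1%), in 37.1% of the 151 gaps of 101 to 150 bp, in 52.6% of the 190 gaps of 151 to 200 bp and in 54.8% of the 157 gaps of 201 to 250 bp. A longer gap has more places for a word. Per kb the numbers were 3.82, 6.30, 7.40 and 5.93 in the same order, so the shortest gaps were also the sparsest. The telo-box occurred in 0 of the 35 shortest gaps and in 13.9%, 9.47% and 12.1% of the next 3 classes. The median GC content was 32.7%, 36.2%, 36.8% and 37.4%, and TATAAA stood at 34.3%, 29.1%, 38.9% and 33.1%, with no order by size. The 5′ UTRs had a median of 112.5 bp at the 35 shortest gaps and of 89.0, 87.0 and 89.0 bp at the others.

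They also differed with the role of the genes. Among the 51 pairs with a ribosomal protein gene, 30 gaps (58.8%) held a site II word and 18 (35.3%) a telo-box, against 46.5% and 10.9% of all 533. Pairs with a pentatricopeptide or tetratricopeptide repeat gene had a telo-box in 12 of 41 gaps (29.3%) and site II in 15 (36.6%). RNA processing pairs had site II in 22 of 40 gaps (55.0%) and pairs with a transcription factor or zinc finger gene in 16 of 24 (66.7%). Pairs with a kinase gene had site II in 9 of 28 gaps (32.1%), a telo-box in 1 and TATAAA in 5 (17.9%), against TATAAA in 34.1% of all gaps. The partner of such a gene usually belongs to no class or to another one.

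The newer annotation, TAIR10.1, moved most of the starts. In it, 532 of the pairs were found, since AT5G25752 is not among its loci. The gap was narrower in 494 pairs, the same in 34 and wider in 4, and its median was 77.5 bp in TAIR10.1, against 168 bp in TAIR10. The gap stayed at 1 to 250 bp in 414 pairs, and in 115 pairs (21.6%) the 5′ ends overlapped or touched, with a median overlap of 37 bp. Of the 1064 starts, 806 (75.8%) lay further upstream, by a median of 54 bp. Starts moved upstream in 78.7% of genes at divergent gaps of more than 250 up to 1000 bp, by 82 bp, and in 77.8% of the other genes, by 85 bp, so the shift of the pair genes had the shorter median.

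**Figure D5:**
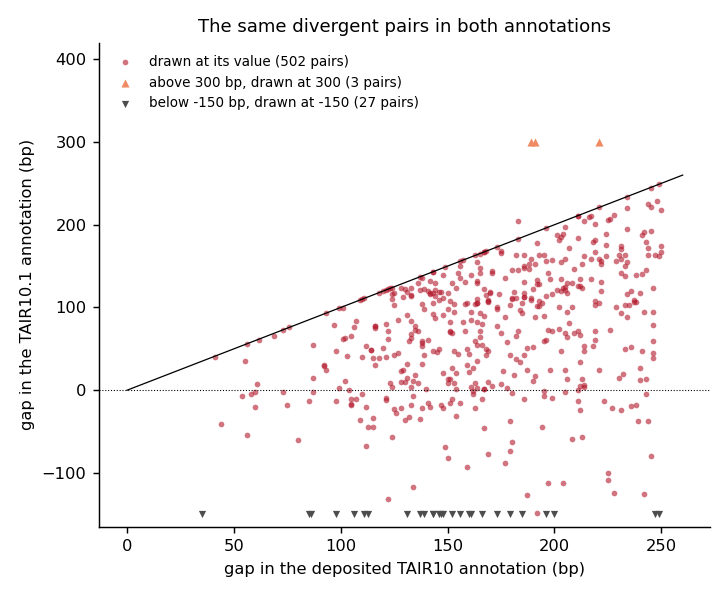
Gap of each divergent pair in the TAIR10.1 annotation (vertical, bp) against its gap in the deposited TAIR10 annotation (horizontal, bp), for 532 pairs; the line marks equal gaps, and below 0 the 5′ ends overlap. Narrower gaps in TAIR10.1 put 494 pairs under the line, and 27 pairs below -150 bp and 3 above 300 bp are drawn at those values.

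The largest overlaps in TAIR10.1 were 1880 bp between AT4G02720 and AT4G02725, 1771 bp between BPM4, an adaptor of a ubiquitin ligase, and SDG20, a SET domain protein, and 1059 bp between AT2G41750 and AT2G41760. CAF2, a splicing factor of chloroplast introns, overlapped AT1G23410 by 1024 bp, and AT1G55152 overlapped AT1G55160 by 932 bp. In each of these 5 pairs 1 start moved by more than 1000 bp, for example the BPM4 start by 1862 bp and the SDG20 start by 52 bp. The gaps of AT1G52640, UPL1 and PUX3 with their partners passed the limit, at 403, 2313 and 357 bp in TAIR10.1, and were named after their values were seen. Applied to TAIR10.1 itself, the rule gave 809 of 4650 divergent pairs (17.4%), against 1006 of 4666 convergent pairs (21.6%) and 2689 of 10258 tandem pairs (26.2%). Of the 417 pairs that keep a gap of at least 1 bp there, 166 (39.8%) had a site II word in the gap of that annotation. With starts from TAIR10.1, TATAAA lay 20 to 45 bases before 5.92% of the pair genes and 8.37% of the other genes, so the difference between these sets was smaller than with TAIR10 starts.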

How the data were processed

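The series has 21 RNA libraries; replicates were numbered in accession order and pair no samples. The deposited file is the TAIR10 gene annotation, whose values are other than expression: start and end positions in bp on 590264 lines, with 0 columns of per-sample values. Depth and expression were not analysed here. TAIR10, TopHat2 2.0.8 and Trimmomatic 0.0.3 are named, per the submitters' processing notes, without a role.

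Coding loci of chromosomes 1 to 5 were sorted by start, and the gap was taken between gene ends. Pairs, lists, words and classes were chosen with earlier results of these data known. Transcript, UTR and exon values are those of the first listed isoform. Of 187 further divergent pairs with gaps of 1 to 250 bp, at least 1 gene lacks an annotated UTR. Sequence came from the RefSeq TAIR10.1 assembly, whose nuclear chromosomes have the lengths of TAIR10; at TAIR10 positions 27165 of 27206 nuclear coding genes (99.8%) and all 1066 pair genes gave intact reading frames. No promoter table was used: promoters were cut from this genome from 250 bp before to 50 bp after the start. Proteins were translated from TAIR10 coding sequences, aligned with BLASTP 2.17.0. List symbols were matched through the RefSeq gene table, 122 of 137; synonyms of a locus count once and ambiguous symbols were left out. Product classes are word matches in RefSeq product names.

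Pairs were named by rule: the 8 smallest gaps, the 4 on either side of 250 bp, the 5 most alike protein pairs (4 passed), up to 2 same-class pairs per class, the 5 largest TAIR10.1 overlaps, the 5 shortest start codon distances, the smallest gap per word, list genes, and the AT4G35985 and CAB1 pairs; exceptions, such as the 5 pairs with a site II word and a telo-box within 30 bases, were chosen after their values were seen and are stated. Python 3.11.15, numpy 2.4.6, pandas 2.3.3, scipy 1.17.1, Biopython 1.88 and matplotlib 3.10.9 were used, and the neighbour rule and word search were tested on simulated data.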

Additional observations from a re-analysis of the deposited data

How the results depend on the processing

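Alternatives to the gap limit, the UTR requirement, the isoform, the word windows, the BLASTP threshold and the annotation were tried; those on TAIR10.1 starts and gaps for TATAAA, site II, overlaps and gaps of 100 bp or less were chosen after seeing the data. The number of pairs was 35 with a limit of 100 bp, 924 with 500 bp and 809 in TAIR10.1, against 533. The share of divergent gaps at 1 to 250 bp was 11.1% with no UTR required and 17.4% in TAIR10.1, against 15.7%; convergent gaps stood at 21.6% in TAIR10.1, against 28.8%, and tandem gaps at 13.0% with no UTR required and 26.2% in TAIR10.1, against 18.1%. In TAIR10.1 the tandem share was thus above the convergent one, 5.98% of divergent neighbours overlapped or touched, against 1.38%, and 36.0% of divergent gaps of 1 to 250 bp measured 100 bp or less, against 6.57%. In 300 bp promoters the telo-box stood at 20.8%, CCAAT at 55.7% and the GA repeat at 36.4% of the pair genes, and the GA repeat at 18.0% in 200 bp windows; these windows hold more bases than the gaps. TATAAA before TAIR10.1 starts stood at 8.37% of the other genes, against 14.5%, and site II at 39.8% in TAIR10.1 gaps, against 46.5%. The cause of neither was tested. The gap was narrower in TAIR10.1 in 494 pairs, and the 39.8% is over the 417 pairs that keep a gap of at least 1 bp. The 24 other values tried stayed within 1.5 times of the main count, within the 95% binomial interval of the main share or within the quartiles of the main median; the median exon number, for example, was 6 with the longest isoform, against 5. The annotation of the starts limits all gaps and positions, since it is 1 set of gene models and not a measurement in these stems or leaves. No paired analysis was possible because the annotation holds positions and nothing measured per library.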

Other observations

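A few of the pairs exist as copies elsewhere in the genome, a comparison made after seeing the data. A pair was counted as copied when its proteins had matches, among the first 5 of each at an E-value of 1e-10 or less, in another neighbour pair of the same orientation. Pairs whose own 2 proteins are alike were not searched, which left out 4 divergent, 17 convergent and 80 tandem pairs. With all pairs as the base, a copy was found for 8 of the 533 divergent pairs (1.5%). It was found for 78 of 1001 convergent pairs (7.79%) and 73 of 1310 tandem pairs (5.57%). In 4 of the 8 the copy is itself a pair of 1 to 250 bp, so these count from both sides. Among the pairs searched, both proteins had a match to another protein at that E-value in 255 divergent, 682 convergent and 715 tandem pairs. Over these the shares were 3.14% of divergent, 11.4% of convergent and 10.2% of tandem pairs. AT2G31600 and AT2G31610 on chromosome 2, an INO80 complex subunit D-like gene and a ribosomal protein S3 gene with a gap of 206 bp, have their copy in AT3G53860 and AT3G53870 on chromosome 3, with a gap of 197 bp. AT3G06310 and AT3G06320, a Cox19-like gene and a ribosomal protein L33 gene 102 bp apart, have theirs in AT5G18790 and AT5G18800, 145 bp apart in the turned order.

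Both copies of these arrangements hold site II words in the gap: 3 and 4 in the S3 pairs and 3 and 2 in the L33 pairs. The longest run of identical bases shared by the gaps was 21 bp in the S3 pairs and 9 bp in the L33 pairs. Printed below are the stretches around the site II word nearest the middle of each gap, plus strand with the word in capitals. The word was picked in each gap on its own and the copies were not aligned. The stretches therefore do not measure how far the copies differ.
AT2G31600 and AT2G31610, chr2:13450180-13450209: aaaatatattaaAGCCCAtaaaatgtccat
AT3G53860 and AT3G53870, chr3:19951379-19951408: tttatcaatgtaTGGGCCaaattattcaac
AT3G06310 and AT3G06320, chr3:1914438-1914467: ctgggctgatatTGGGCTcaacttaatagc
AT5G18790 and AT5G18800, chr5:6266970-6266999: aaattttcattcGGCCCAttaaatctgaat
The other copies lie past the limit. PCNA2, the sliding clamp of DNA replication, and MAC5B are 219 bp apart, against 274 bp between MAC5A and PCNA1. AT1G17520 and the mitochondrial translocase gene TIM23-1 are 245 bp apart, against 440 bp in the copy with TIM23-2. AT2G20440 and the ribosomal protein L14 gene AT2G20450 are 217 bp apart, against 308 bp, and AT1G48430 and AT1G48440 are 180 bp apart, against 774 bp. Site II words in these gaps numbered 2 in the PCNA2 pair and 0 in its copy, 0 and 0 in the TIM23-1 pair and its copy, 2 and 2 in the AT2G20440 pair and its copy, and 2 and 4 in the AT1G48430 pair and its copy.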
